A study of Mus musculus with 9 samples.

Results

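Hearts with 1 frameshift allele of Rbm20 were placed on the scale between hearts with none and hearts with 2, exon by exon and gene by gene. All 9 RNA-seq libraries of the series entered, 3 of each genotype: wild-type mice, mice heterozygous and mice homozygous for a CRISPR knock-in of the deletion c.1121_1122delAG (p.Q374Rfs) in Rbm20. Every library was made from the total RNA of a heart taken at 12 weeks of age, and no group carried another named allele or treatment. Strain and number of founder lines are not given in the sources used here, and nothing in the labels ties a library to its own animal, so the spread behind each p-value is that between libraries and may be technical. In bulk tissue, fewer cells of a type and less RNA per cell cannot be told apart.

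The exonic parts are segments of exons cut at every annotated exon boundary. Each has a percent-spliced-in value (PSI, a fraction from 0 to 1), the length-adjusted share of reads that include it against reads that skip it. Of 480017 parts, 256081 had at least 10 inclusion plus exclusion reads in every library, and 55648 of these also varied enough to be tested (highest PSI of at least 0.05, lowest of at most 0.95). Gene level was the sum of inclusion counts over a gene's parts, for 22049 of 54660 gene identifiers. Libraries were deep and even, with 296629818 to 323205269 inclusion reads and 52577724 to 62291976 exclusion reads each. Mitochondrial genes took 16.9 to 19.7% of inclusion reads. Without Nppa, the other 6 measured atrial markers summed to 1040 CPM in heterozygous library 3, against 30.6 and 41.2 CPM in the other heterozygous libraries, 40.7 to 119 CPM in wild-type and 35.2 to 51.3 CPM in homozygous libraries. Of the listed markers of fibroblasts, endothelium and leukocytes, 0 were called by edgeR in any of the comparisons, and 0 had an unadjusted p under 0.05 against the midpoint.

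RBM20 is an RNA-binding splicing regulator of striated muscle that binds pre-mRNA of sarcomere and calcium-handling genes. It represses the inclusion of many exons, best known in titin, whose spring region lengthens when RBM20 is lost. Known targets besides titin (Ttn) include the kinase gene Camk2d, the calcium release channel gene Ryr2 and the Z-disc gene Ldb3.

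The midpoint is the average of the wild-type and homozygous group means. A position was computed for each part or gene as the heterozygous minus the wild-type mean, divided by the homozygous minus the wild-type mean. A position of 0 is the wild-type mean (fully recessive), 0.5 the midpoint (additive) and 1 the homozygous mean (fully dominant). Parts are called recessive-side where the 95% interval of the position lay below 0.5, dominant-side where it lay above 0.5, and near additive where it held 0.5 and stayed within 0.25 to 0.75. These intervals are per part and not adjusted for the number of parts.

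The targeted gene, Rbm20, measured 105, 104 and 132 CPM in the wild-type, 85.5, 68.4 and 90.2 CPM in the heterozygous and 66, 51.8 and 54.7 CPM in the homozygous libraries. The 3 genotypes did not overlap. The homozygous minus wild-type difference was -0.98 on the log2 scale (SE 0.139, edgeR adjusted p 0.00428). Its position was 0.49 (0.41, 0.74 and 0.33 in the single libraries), and its difference from the midpoint was 0.01 (95% interval -0.25 to 0.27).

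Splicing in heterozygous hearts was nearer to wild-type at most called parts, the larger share of which lay in Ttn. Parts were called at a limma adjusted p under 0.05 where PSI also differed by 0.1 or more. By this rule heterozygous hearts differed from the midpoint at 83 of 55648 parts (0.149%), of which 80 were lower and 3 higher than the midpoint. Without adjustment, 2491 parts had a p under 0.05. Homozygous and wild-type hearts differed at 230 parts (0.413%), 209 of them more included in homozygous hearts. The median position of those 230 parts was 0.27, and 137 were recessive-side, 56 dominant-side, 11 near additive and 26 not resolved. The 3 heterozygous libraries gave medians of 0.25, 0.26 and 0.27 over these parts. Ttn held 148 of the 230 and 102 of the 137, and its neighbouring parts share skipping reads, so parts are not independent. Outside Ttn, 35 were recessive-side, 23 dominant-side, 2 near additive and 22 not resolved, and the median over called parts there depended on which library was left out. Of the 83 parts that differed from the midpoint, 79 were among the 230; 77 of those stood on the wild-type side and 2 on the homozygous side. By gene, 72 lay in Ttn, 4 in Ank3, 2 in the Npff/Gm28047/Atf7 locus and 1 each in Ryr2, Pcnt, Zfp458, Gm4724 and Ppp4r1l-ps. The count depends on the scale: on the logit of PSI only 2 parts differed from the midpoint, although the 230 parts kept a median position of 0.34. Among the 6 libraries numbered below 11000, which hold 1 wild-type library, 0 parts were called by limma and the same 230 parts had a median position of 0.26.

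**Figure D1:**
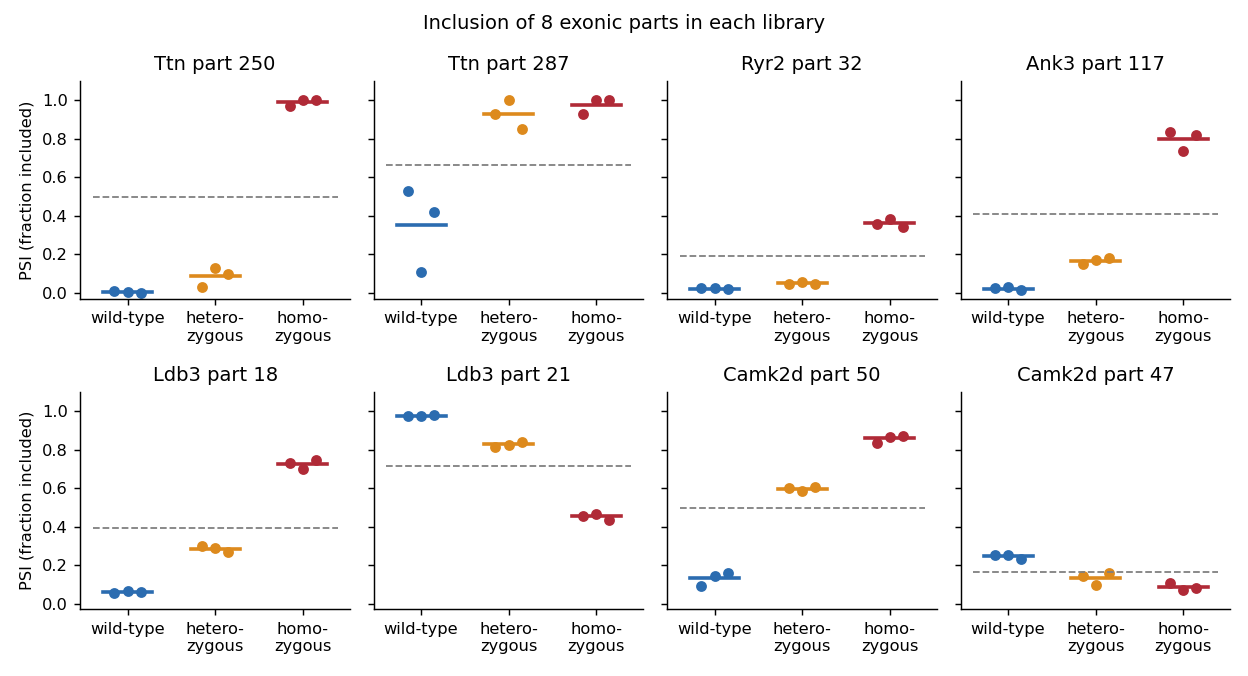
PSI (y axis, fraction included) of 8 exonic parts in the 3 wild-type, 3 heterozygous and 3 homozygous libraries (x axis); points are libraries, solid bars group means and the dashed line the midpoint. Heterozygous points sit near wild-type for Ttn part 250 (position 0.08), Ryr2 part 32 (0.09) and Ank3 part 117 (0.19), and near homozygous for Ttn part 287 (0.92).

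Titin, the giant spring protein that spans from Z-disc to M-band, held 148 of the 230 parts, and all 148 were more included in homozygous hearts. Their median position was 0.12 (0.10, 0.16 and 0.12 in the 3 heterozygous libraries). Of these parts, 102 were recessive-side, 33 dominant-side, 9 near additive and 4 not resolved. Most recessive-side and dominant-side parts lay in runs along the gene, with 5 dominant-side parts inside a stretch of 84 recessive-side ones. The median over called Ttn parts was 0.59 with a minimum of 50 reads, and 0.38 over those of the 148 that remained; it was 0.23 on the logit scale, and 0.20 and 0.24 without wild-type library 1 or 2. Ttn is on the minus strand of chromosome 2 and parts are numbered along the chromosome, so the 5′ end of the transcript has the highest numbers. Blocks were cut at the first 2 jumps of the position by over 0.4 and at the first gap of over 10 part numbers, a rule chosen after the values were seen.

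The first block is part 332 alone, 564 bases long. PSI of Ttn part 332 was 0.236, 0.0225 and 0.138 in the wild-type libraries, 0.834, 0.948 and 0.839 in the heterozygous libraries and 0.925, 1 and 1 in the homozygous libraries. The lowest heterozygous library lay above the highest wild-type library, and the position was 0.88 (95% interval 0.72 to 1.06). The second block, parts 313 to 331, held 19 called parts of 36 to 288 bases. Its median position was 0.29 (range 0.16 to 0.43), 18 of the 19 were recessive-side, and all 19 were also lower in heterozygous than in homozygous hearts (147 of all tested parts, 0.264%, passed that comparison). The third block, parts 280 to 312, held 27 called parts with a median position of 0.85 (range 0.78 to 0.92), all of them dominant-side and 26 with a homozygous mean PSI above 0.95. None of the 27 differed from homozygous hearts by the limma call, and 21 differed from wild-type, against 42 of all tested parts (0.0755%). Their distance from the midpoint was not called in any of the 27 after adjustment (lowest adjusted p 0.0564, at part 292), although all 27 had an unadjusted p under 0.05. The fourth block, parts 128 to 259, held 101 called parts with a median position of 0.04, and 71 of them differed from the midpoint.

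The step between the second and the third block fell between neighbouring exons. For Ttn part 313, PSI measured 0.0701, 0.00621 and 0.00719 in wild-type, 0.222, 0.235 and 0.246 in heterozygous and 0.902, 1 and 1 in homozygous libraries. Ttn part 312 had a PSI of 0.117, 0.0201 and 0.0701 in the wild-type libraries, 0.82, 0.871 and 0.625 in the heterozygous libraries and 0.898, 1 and 1 in the homozygous libraries. Heterozygous PSI thus ran from 0.222 to 0.246 in the one and from 0.625 to 0.871 in the next, while the wild-type ranges of both parts overlapped, as did the homozygous ranges. Positions were 0.22 (95% interval 0.12 to 0.31) and 0.78 (95% interval 0.62 to 0.96), intervals that do not overlap. The boundary was placed at this jump, so the gap between these positions follows from that choice.

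Within the fourth block, 79 parts had a position under 0.25, with a median of 0.02; this split uses the position itself, so their side follows from the choice. They held all 71 parts of the block that differed from the midpoint. Depth was low here, with as few as 47, 38 and 62 reads in a library at parts 228, 205 and 250. With a minimum of 50 reads, 18 Ttn parts differed from the midpoint, against 72 with the minimum of 10. In the wild-type libraries Ttn part 228 had a PSI of 0.179, 0 and 0.0347, against 0.0186, 0.0154 and 0.032 in the heterozygous and 0.899, 1 and 0.954 in the homozygous libraries. Heterozygous values there lay within the wild-type range, and the difference from the midpoint was -0.49 with a standard error of 0.0455, limma adjusted p 0.00383. PSI of Ttn part 205 was 0.116, 0 and 0.063 in the wild-type libraries, 0, 0 and 0.0208 in the heterozygous libraries and 0.829, 1 and 0.923 in the homozygous libraries. For Ttn part 250, PSI measured 0.00961, 0.00284 and 0 in wild-type, 0.0318, 0.129 and 0.0959 in heterozygous and 0.973, 1 and 1 in homozygous libraries. At part 250 all 3 heterozygous libraries were above all 3 wild-type libraries but far below the homozygous ones, with a difference from the midpoint of -0.41 with a standard error of 0.0327 and an adjusted p of 0.00195. That call was lost on the logit scale (adjusted p 0.24) and within libraries numbered below 11000 (0.166).

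The other 22 parts of the fourth block had positions from 0.25 to 0.91, with a median of 0.47; none differed from the midpoint after adjustment by limma, and 10 had an unadjusted p under 0.05. They include short runs inside the recessive stretch. Ttn part 241 had a PSI of 0.435, 0.0463 and 0.281 in the wild-type libraries, 0.888, 0.956 and 0.807 in the heterozygous libraries and 0.983, 1 and 1 in the homozygous libraries. Its position was 0.85 (95% interval 0.61 to 1.15), and its neighbours 240 and 242 had 0.85 and 0.82. In the wild-type libraries Ttn part 190 had a PSI of 0.27, 0.0284 and 0.104, against 0.736, 0.746 and 0.725 in the heterozygous and 0.873, 0.954 and 0.921 in the homozygous libraries. Part 190 had a position of 0.77 (95% interval 0.60 to 0.96) between neighbours near 0. Parts 157 and 160, near the 3′ edge of the block, stood at 0.47 and 0.48. The second wild-type library carried at least 339 skipping reads at each of 384 Ttn parts, more than any other library had as a minimum. It also had the lowest wild-type PSI at parts such as 254 and 287 (0.528, 0.11 and 0.422 in the 3 wild-type libraries at part 287). With those shared reads removed, the median positions of the second and the third block were 0.28 and 0.84. The median over called Ttn parts was then 0.22, and 0.11 over the 148 parts called with all reads.

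**Figure D2:**
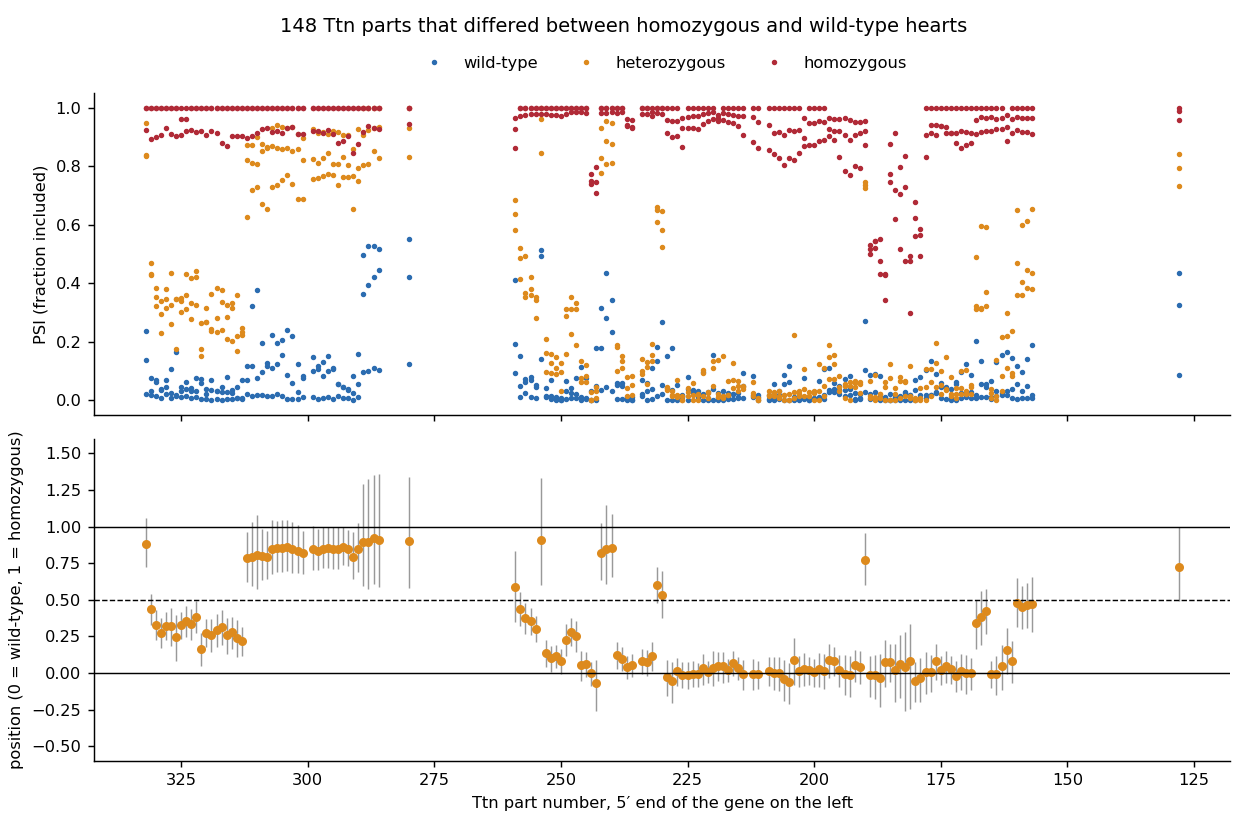
Upper panel, PSI (y axis, fraction included) of the 148 called Ttn parts in each library against part number (x axis, 5′ end of the gene on the left); lower panel, position of heterozygous hearts with 95% intervals (grey lines) on the same axis, with lines at 0, 0.5 (dashed) and 1. The block of parts 280 to 312 sits near 0.85, the block of parts 313 to 331 near 0.29, and most parts from 161 to 253 near 0.

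The 49 Ttn parts of at least 200 bases had a median position of 0.80 and the 99 shorter parts one of 0.05. The long parts split by block, with medians of 0.30 over 18 in the second and 0.85 over 25 in the third block, and 20 of the 49 were recessive-side. Neighbouring parts share skipping reads, so these are not independent values. The exons of 2 parts that stand for the extremes are printed below, part 250 near wild-type and part 293 near homozygous in heterozygous hearts; both have lengths that are multiples of 3. PSI of Ttn part 293 was 0.0446, 0.00804 and 0.0467 in the wild-type libraries, 0.83, 0.907 and 0.762 in the heterozygous libraries and 0.885, 1 and 1 in the homozygous libraries. Coordinates are GRCm39, as deposited; the sense-strand letters come from GENCODE M21 transcripts (build GRCm38), matched by exon spacing, which placed 369 of 392 Ttn part starts on exon starts against 7 for the next best placement.

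Ttn part 250 (chr2:76687147-76687248, minus strand): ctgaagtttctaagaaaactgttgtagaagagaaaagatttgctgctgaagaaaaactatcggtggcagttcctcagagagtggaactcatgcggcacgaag
Ttn part 293 (chr2:76715469-76715747, minus strand): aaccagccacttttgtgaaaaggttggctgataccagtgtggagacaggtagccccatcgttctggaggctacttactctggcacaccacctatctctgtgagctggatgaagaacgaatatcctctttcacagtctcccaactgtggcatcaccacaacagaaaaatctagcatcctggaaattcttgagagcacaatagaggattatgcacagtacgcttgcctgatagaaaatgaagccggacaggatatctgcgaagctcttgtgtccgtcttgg

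Calcium-handling targets of RBM20 lay on both sides of the midpoint. Camk2d encodes the delta chain of calcium/calmodulin-dependent protein kinase II, and its 4 called parts are segments of alternative exons of the variable linker. Their median length was 17.5 bases. For Camk2d part 50, PSI measured 0.0906, 0.142 and 0.158 in wild-type, 0.599, 0.583 and 0.606 in heterozygous and 0.835, 0.866 and 0.871 in homozygous libraries. The 3 genotypes did not overlap, and heterozygous libraries lay closer to homozygous ones, at a position of 0.64 (95% interval 0.52 to 0.76). Camk2d part 47 had a PSI of 0.252, 0.25 and 0.234 in the wild-type libraries, 0.141, 0.0991 and 0.158 in the heterozygous libraries and 0.107, 0.0709 and 0.0809 in the homozygous libraries. This exon, which carries the nuclear localization segment of the delta-B form, was less included in homozygous than in wild-type hearts (limma adjusted p 0.0159), and its position was 0.71 (95% interval 0.44 to 1.02). Parts 49 and 46, which adjoin these, stood at 0.62 and 0.68. No Camk2d part differed from the midpoint after adjustment by limma, and 1 of the 4 had an unadjusted p under 0.05; the difference at part 50 was 0.10 with a standard error of 0.0375, adjusted p 0.894.

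Ryr2, through which calcium leaves the sarcoplasmic reticulum, had 1 called part, a 24-base exon. In the wild-type libraries Ryr2 part 32 had a PSI of 0.0254, 0.0248 and 0.0188, against 0.0485, 0.0586 and 0.0487 in the heterozygous and 0.36, 0.381 and 0.34 in the homozygous libraries. All heterozygous libraries were above all wild-type libraries, yet near them. The position was 0.09 (95% interval -0.03 to 0.19) and the difference from the midpoint -0.14 with a standard error of 0.015, adjusted p 0.00796. The call was lost under 8 of 20 other settings, with adjusted p up to 0.301 on the logit scale; they include leaving out wild-type library 2 (0.0512) or heterozygous library 1 (0.0793), 2 (0.0536) or 3 (0.0778). The interval of Ryr2 part 32 lay wholly below that of Camk2d part 50. The exons of these calcium-handling parts are shown because their positions lie on either side of the midpoint; 121 of 133 Ryr2 and 52 of 81 Camk2d part starts fell on exon starts of the matched transcripts.

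Camk2d part 50 (chr3:126599511-126599565, plus strand): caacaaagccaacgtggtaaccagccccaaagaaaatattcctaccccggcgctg
Camk2d part 47 (chr3:126596589-126596618, plus strand): aggaagtccagttcgagtgttcagatgatg
Ryr2 part 32 (chr13:11649193-11649216, minus strand): gtcacaggatcccaacgcagcaag

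Ldb3 encodes the Z-disc PDZ-LIM protein also called Cypher or ZASP, with exons used in heart and others used in skeletal muscle. PSI of Ldb3 part 18 was 0.0574, 0.0659 and 0.0596 in the wild-type libraries, 0.301, 0.287 and 0.269 in the heterozygous libraries and 0.727, 0.698 and 0.745 in the homozygous libraries. For Ldb3 part 21, PSI measured 0.976, 0.973 and 0.977 in wild-type, 0.816, 0.824 and 0.84 in heterozygous and 0.456, 0.465 and 0.436 in homozygous libraries. At both parts the 3 genotypes did not overlap. Part 18 rose and part 21 fell from wild-type to homozygous hearts (adjusted p 1.83e-05 and 6.09e-05), with positions of 0.34 (95% interval 0.24 to 0.44) and 0.28 (95% interval 0.15 to 0.41). All 6 called Ldb3 parts, 4 that rose and 2 that fell, had positions from 0.28 to 0.34 and were recessive-side. None differed from the midpoint after adjustment by limma, with adjusted p from 0.413 to 0.88, and all 6 had an unadjusted p under 0.05. Many of these parts share skipping reads.

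Ank3 encodes ankyrin-G, a membrane adaptor that anchors sodium channels. Its 4 neighbouring parts 115 to 118 were the largest group outside Ttn that differed from the midpoint. Ank3 part 117 had a PSI of 0.0241, 0.0284 and 0.0128 in the wild-type libraries, 0.15, 0.169 and 0.182 in the heterozygous libraries and 0.835, 0.739 and 0.819 in the homozygous libraries. The 3 genotypes did not overlap; the position was 0.19 (95% interval 0.08 to 0.28) and the difference from the midpoint -0.24 with a standard error of 0.0314, adjusted p 0.0281. Positions of the 4 parts ran from 0.15 to 0.19, with adjusted p from 0.0212 to 0.0281. The call at part 117 was lost under 10 of 20 other settings, with adjusted p up to 0.9 on the logit scale; they include leaving out any 1 wild-type library (0.136, 0.144 and 0.136) or any 1 heterozygous library (0.213, 0.131 and 0.132). Its exon follows; 98 of 134 Ank3 part starts fell on exon starts of the matched transcripts.

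Ank3 part 117 (chr10:69849802-69849885, plus strand): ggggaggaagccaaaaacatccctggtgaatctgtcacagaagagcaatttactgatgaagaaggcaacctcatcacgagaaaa

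Myom1, Myh7 and Rbm20 had 1 called part each, all recessive-side. Myom1 encodes a protein of the M-band. In the wild-type libraries Myom1 part 29 had a PSI of 0.0859, 0.0857 and 0.0972, against 0.0957, 0.124 and 0.157 in the heterozygous and 0.326, 0.248 and 0.249 in the homozygous libraries. PSI of Myh7 part 45 was 0.0362, 0.0307 and 0.038 in the wild-type libraries, 0.0425, 0.040 and 0.0375 in the heterozygous libraries and 0.166, 0.218 and 0.143 in the homozygous libraries. Myh7 is the slow myosin heavy chain, and its heterozygous values ran from inside the wild-type range to just above it. Rbm20 itself had a 13-base part, 11, with a PSI of 0.102, 0.0811 and 0.0861 in wild-type, 0.104, 0.143 and 0.0862 in heterozygous and 0.22, 0.263 and 0.30 in homozygous libraries. Positions were 0.20 (95% interval -0.17 to 0.48) for Myom1, 0.04 (95% interval -0.34 to 0.31) for Myh7 and 0.13 (95% interval -0.27 to 0.42) for Rbm20. Parts of 25 of the 28 listed RBM20 targets could be tested, and called parts lay in 6 of them (24%, against 56 of 10688 tested genes, 0.524%). The 25 targets held 695 of the 55648 tested parts, more per gene than the tested genes at large, so these shares are not like for like. The other targets are not placed, since homozygous and wild-type hearts did not differ after adjustment. For Lmo7 part 23, PSI measured 0.462, 0.379 and 0.352 in wild-type, 0.549, 0.501 and 0.545 in heterozygous and 0.624, 0.613 and 0.60 in homozygous libraries. The homozygous minus wild-type difference at this part of Lmo7, a LIM-domain gene, had a limma adjusted p of 0.20, and the heterozygous libraries lay between the other groups.

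Outside Ttn, 82 parts of 55 gene identifiers differed between homozygous and wild-type hearts, with a median position of 0.37. Over the parts called in each fit, this median was 0.054, 0.11 and 0.12 without homozygous library 2, 3 or 1 and 0.61, 0.77 and 0.75 without wild-type library 1, 2 or 3; over those of the 82 parts that each setting could fit, it ran from 0.34 to 0.47. Of these, 35 were recessive-side, 23 dominant-side, 2 near additive and 22 not resolved. All 23 dominant-side parts were among the 61 that rose; of the 21 that fell, 10 were recessive-side and 11 not resolved. Most dominant-side parts lay at the ceiling of the scale, with a homozygous mean PSI above 0.95 in 19 of 23. The near additive parts were Camk2d part 49, which adjoins the dominant-side part 50, and Abitram part 6 (position 0.57). Abitram part 6 had as few as 10 reads in a library.

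Recessive-side parts outside the listed targets included some of the largest. 2310002L09Rik part 1 had a PSI of 0.0136, 0.109 and 0.043 in the wild-type libraries, 0.094, 0.292 and 0.0855 in the heterozygous libraries and 1, 0.996 and 1 in the homozygous libraries. The second heterozygous library was higher than the others, and the position was 0.11 (95% interval -0.04 to 0.24). The difference from the midpoint was -0.37 with a standard error of 0.0527, adjusted p 0.0533. In the wild-type libraries Fhl1 part 8 had a PSI of 0.0856, 0.106 and 0.0599, against 0.104, 0.114 and 0.104 in the heterozygous and 0.314, 0.575 and 0.584 in the homozygous libraries. Fhl1 encodes a LIM-domain protein of muscle, and the first homozygous library was lower than the others; the position was 0.06 (95% interval -0.40 to 0.37). PSI of Scube2 part 9 was 0.964, 0.828 and 0.91 in the wild-type libraries, 0.916, 0.87 and 0.842 in the heterozygous libraries and 0.589, 0.398 and 0.427 in the homozygous libraries. Part 9 of Scube2, which encodes a secreted protein, fell in homozygous hearts, and its position was 0.06 (95% interval -0.33 to 0.34). The long noncoding RNA Mhrt, antisense to myosin heavy chain genes, had part 19 at 0.08 (95% interval -0.34 to 0.38), and Gm29015 part 2 stood at 0.05 (95% interval -0.25 to 0.28). Closer to the midpoint were Arhgap10, a GTPase-activating protein gene, and Ttc17. For Arhgap10 part 12, PSI measured 0.43, 0.338 and 0.347 in wild-type, 0.663, 0.679 and 0.706 in heterozygous and 0.926, 0.907 and 0.888 in homozygous libraries. The 3 genotypes did not overlap at Arhgap10 part 12, whose position was 0.58 (95% interval 0.42 to 0.75). Ttc17 part 10 stood at 0.54 (95% interval 0.27 to 0.82).

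**Figure D3:**
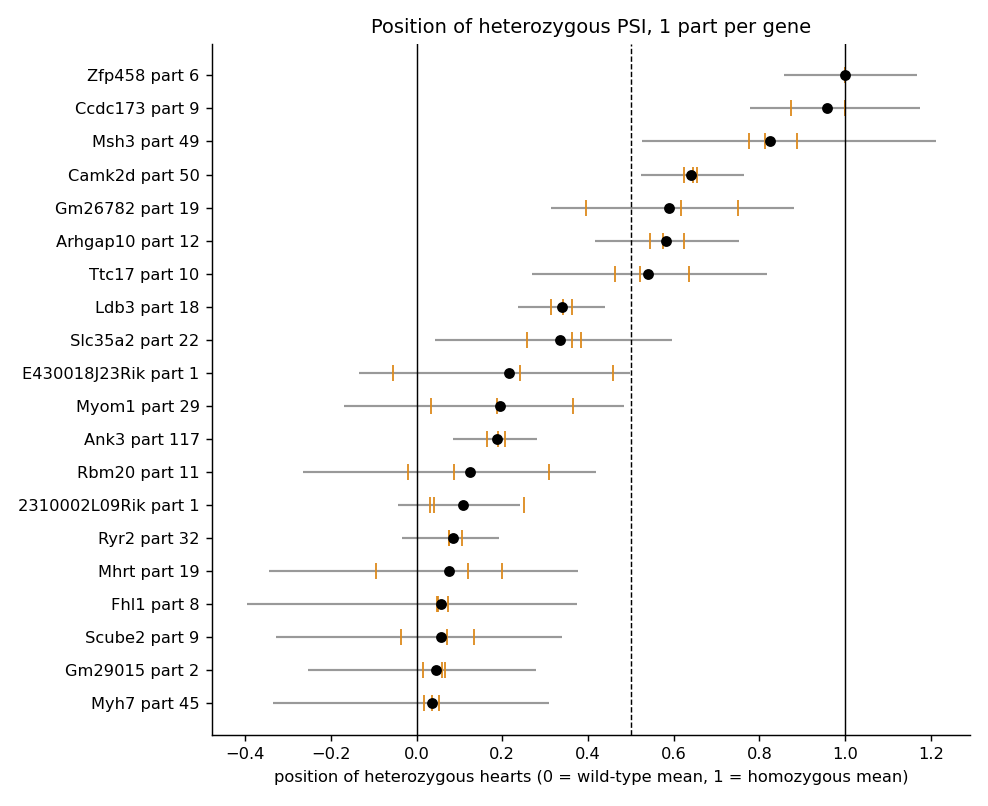
Position of heterozygous PSI (x axis; 0 is the wild-type mean, 1 the homozygous mean, dashed line the midpoint 0.5) for 1 called part in each of 20 genes other than Ttn (y axis); dots are group values, orange ticks single heterozygous libraries and grey lines 95% intervals. Intervals lie below 0.5 for Ldb3 part 18 and for every part plotted below Slc35a2 part 22, and above 0.5 for Camk2d, Msh3, Ccdc173 and Zfp458.

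Among the dominant-side parts outside Ttn, the zinc finger gene Zfp458 held the one farthest from the midpoint. Zfp458 part 6 had a PSI of 0.412, 0.297 and 0.238 in the wild-type libraries, 1 in the heterozygous libraries and 1 in the homozygous libraries. Every heterozygous library was at the homozygous value, and the difference from the midpoint was 0.34 with a standard error of 0.0398, adjusted p 0.0135, with as few as 19 reads in a library. In the wild-type libraries Pcnt/AC141477.1 part 15 had a PSI of 0.714, 0.697 and 0.696, against 1, 1 and 0.99 in the heterozygous and 0.997, 1 and 1 in the homozygous libraries. This part of the pericentrin gene Pcnt, which overlaps AC141477.1, differed from the midpoint by 0.15 with a standard error of 0.0164, adjusted p 0.0104. Both calls were lost under 8 other settings, of 18 for Zfp458 and 20 for Pcnt, with adjusted p up to 0.106 and 0.266. Leaving out 1 heterozygous library gave adjusted p of 0.106, 0.0929 and 0.103 for Zfp458 and of 0.108, 0.0946 and 0.0901 for Pcnt, and leaving out homozygous library 1 gave 0.0594 and 0.0554. The mismatch repair gene Msh3 had parts 48 and 49 at 0.96 and 0.83. Ccdc173 part 9, Aox1 part 26, Ppa2 part 8, Trim12a part 13 and H2bc4 part 1 had positions from 0.96 to 1.07. Ccdc173 part 9 had as few as 10 reads in a library. Of the 23 dominant-side parts, 12 differed between heterozygous and wild-type hearts and 0 between homozygous and heterozygous hearts by limma.

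At 4 parts heterozygous hearts differed from the midpoint where the difference between homozygous and wild-type hearts was not called. PSI of Npff/Gm28047/Atf7 part 7 was 1 in the wild-type libraries, 0.772, 0.847 and 0.764 in the heterozygous libraries and 1 in the homozygous libraries. Part 6 of that locus, which joins 3 overlapping genes, behaved likewise, with 0.798, 0.894 and 0.813 in the heterozygous libraries and 1 in all others. For Gm4724 part 9, PSI measured 1 in wild-type, 0.848, 0.83 and 0.786 in heterozygous and 0.995, 0.93 and 1 in homozygous libraries. Ppp4r1l-ps/ENSMUSG00000121504 part 21 had a PSI of 0 in the wild-type libraries, 0.153, 0.183 and 0.141 in the heterozygous libraries and 0.0402, 0.0737 and 0.0538 in the homozygous libraries. There every homozygous library was above every wild-type library, but the difference was 0.056 with a limma adjusted p of 0.352. Differences from the midpoint were -0.21 with a standard error of 0.0206, -0.16 with a standard error of 0.0217, -0.17 with a standard error of 0.0219 and 0.13 with a standard error of 0.0132 in that order, with adjusted p of 0.00531, 0.0311, 0.0311 and 0.00531. The call at Gm4724 was lost under 14 of 20 other settings. Npff/Gm28047/Atf7 part 7 had as few as 23 reads in a library, and Ppp4r1l-ps/ENSMUSG00000121504 part 21 as few as 22. Over all tested parts, 1031 (1.85%) had the 3 heterozygous libraries outside the range of the other 6.

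At gene level, heterozygous hearts again lay nearer to wild-type. Homozygous and wild-type hearts differed at 969 of 22049 genes (4.39%) by edgeR's quasi-likelihood test, 413 higher (1.87%) and 556 lower (2.52%). The count of 969 ran from 295 without wild-type library 3 to 1319 without heterozygous library 2, and was 2574 with DESeq2, 2207 with the replicate number as a block, 297 with a covariate for library numbers and 90 within libraries numbered below 11000. Only 4 genes (0.0181%) differed between heterozygous hearts and the midpoint, with 930 (4.22%) at an unadjusted p under 0.05. Heterozygous and wild-type hearts differed at 0 genes by edgeR, with 712 at an unadjusted p under 0.05, and 209 (0.948%) differed between homozygous and heterozygous hearts (404 with the replicate number as a block). The 969 genes had a median position of 0.26 (quartiles 0.14 and 0.38), and 875 of them (90.3%) were below 0.5. The median was 0.25 for genes that were higher in homozygous hearts and 0.26 for those that were lower. Of the 969, 263 (27.1%) leaned to wild-type, that is, lay on its side of the midpoint at an unadjusted p under 0.05. Heterozygous libraries 1, 2 and 3 taken singly had median positions of 0.23, 0.44 and 0.14. Library 3 is the only heterozygous one numbered above 11000, and without it the median over the same 969 genes was 0.32. Every homozygous library but only 1 wild-type library is numbered below 11000. Library number is thus partly confounded with the homozygous minus wild-type difference on which each position rests. Within libraries numbered below 11000 the same 969 genes had a median position of 0.30, and 0 genes differed from the midpoint by edgeR.

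**Figure D4:**
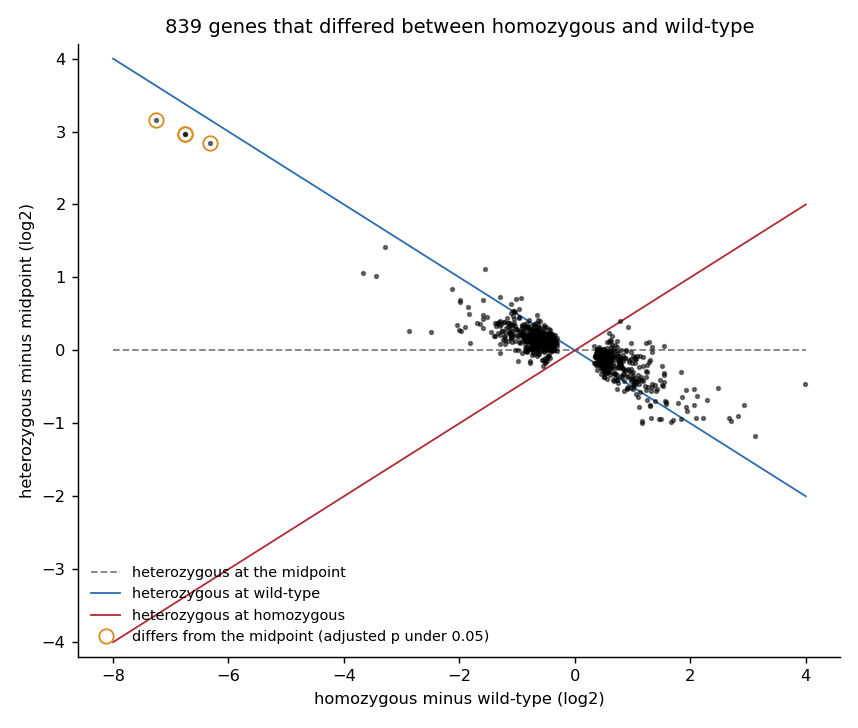
Heterozygous minus midpoint (y axis, log2) against homozygous minus wild-type (x axis, log2) for the 839 called genes with a mean of at least 1 CPM; each point is a gene, and lines mark where a heterozygous value equal to the midpoint (dashed), to wild-type (blue) or to homozygous (red) would lie. Most points lie between the dashed and the blue line, and the 4 circled genes at the upper left, of which Gm11758 and Gm13871 overlie each other, differ from the midpoint.

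The 4 genes that differed from the midpoint, Gm11756, Gm11757, Gm11758 and Gm13871, are neighbours on chromosome 4 within 73790456 to 73838997 (GRCm39), beside 2310002L09Rik. Gm11756 measured 5.97, 6.15 and 6.07 CPM in the wild-type, 5.56, 4.5 and 4.51 CPM in the heterozygous and 0.106, 0.103 and 0.0143 CPM in the homozygous libraries. Gm11757 measured 4.11, 4.01 and 4.04 CPM in the wild-type, 3.46, 2.95 and 2.37 CPM in the heterozygous and 0.0193, 0.0552 and 0.00358 CPM in the homozygous libraries. In both, heterozygous libraries were a little below wild-type and homozygous libraries near 0. On the log2 scale the difference from the midpoint was 2.84 (SE 0.27) for Gm11756 and 3.16 (SE 0.291) for Gm11757, edgeR adjusted p 0.00467 for each. Near-identical values of Gm11758 and Gm13871 leave the counts of these copies uncertain. The log scale matters here, since on linear CPM their positions were 0.20 to 0.28 and none was called by limma (adjusted p from 0.36 to 0.849).

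Genes of cardiac stress that rose in homozygous hearts stood near wild-type in heterozygous hearts. Of 9 listed genes, 6 rose in homozygous hearts, against 1.87% of all tested genes. All 6 leaned to wild-type, against 35.1% of all 413 genes that rose. Their median position was 0.02, against 0.25 over the 413. The median difference from the midpoint over the 9 was -0.68 against 0.0041 over all tested genes. None passed the adjusted test by edgeR (lowest adjusted p 0.53). Acta1, skeletal alpha-actin, measured 162, 209 and 240.5 CPM in the wild-type, 242, 338 and 287 CPM in the heterozygous and 1384, 1920.4 and 1008 CPM in the homozygous libraries. Every heterozygous library of Acta1 was above every wild-type library and far below every homozygous library, at a position of 0.18. Ankrd1, a stretch-responsive nuclear cofactor, measured 1018, 579.7 and 898 CPM in the wild-type, 806, 605 and 777 CPM in the heterozygous and 1676, 2785 and 2595 CPM in the homozygous libraries, and its heterozygous range lay inside the wild-type range. Positions were -0.13 for Ankrd1, 0.14 for the natriuretic peptide gene Nppb, 0.09 and -0.05 for the Xin repeat genes Xirp1 and Xirp2, and -0.23 for Myh7. The Myh7 value rests on which parts are summed, since over parts with a mean PSI of at least 0.95 its position was 1.14.

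Nppa, the atrial natriuretic peptide gene, measured 86.5, 89.7 and 86.4 CPM in the wild-type, 53.6, 94.2 and 1055 CPM in the heterozygous and 542, 519.6 and 382 CPM in the homozygous libraries. Heterozygous library 3 was higher than every homozygous library and the other heterozygous libraries were at wild-type level, and the other 6 atrial markers, at 1040 CPM in sum, were high in that library too; their part in the result was not tested. Nppa's position was 0.89 with that library and -0.10 without it.

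**Figure D5:**
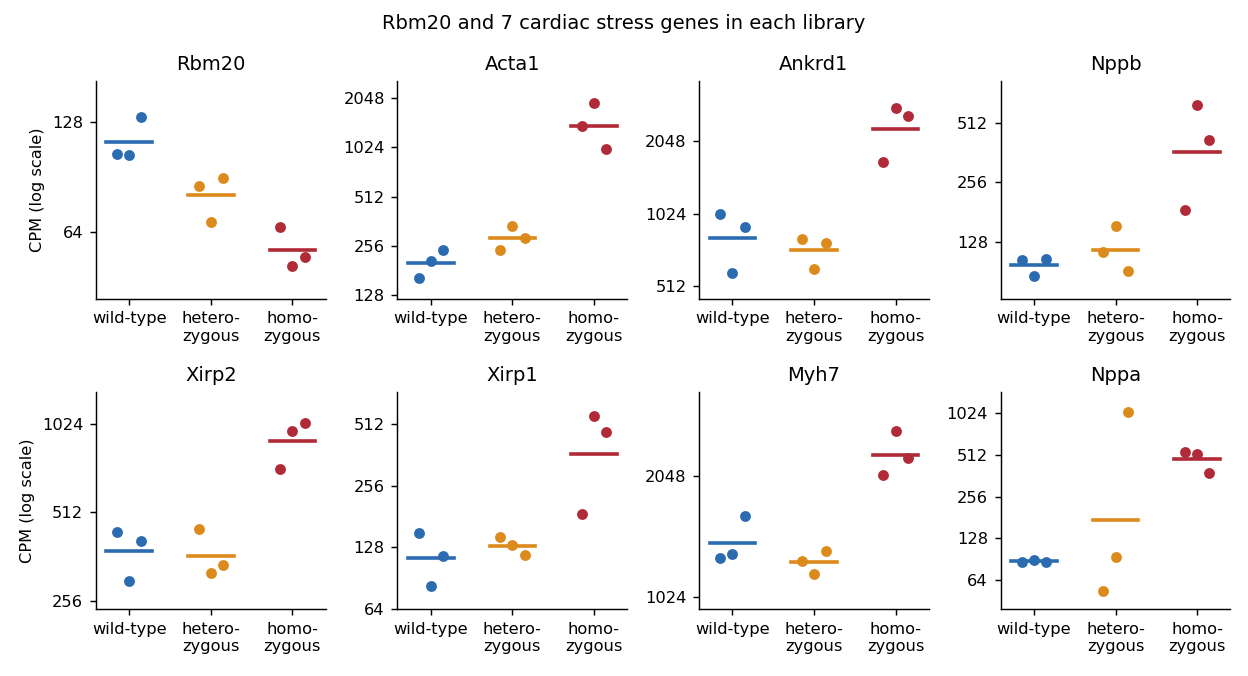
CPM (y axis, log scale) of Rbm20 and 7 cardiac stress genes in the 3 wild-type, 3 heterozygous and 3 homozygous libraries (x axis); points are libraries and bars group means on the log scale. Rbm20 has a position of 0.49, Acta1, Ankrd1, Nppb, Xirp1, Xirp2 and Myh7 stay near wild-type in heterozygous hearts, and Nppa is high in heterozygous library 3 alone among the heterozygous libraries.

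Of 40 measured sarcomere and Z-disc genes, 21 rose and 0 fell in homozygous hearts, against 1.87% and 2.52% of all tested genes. Of the 21, 14 leaned to wild-type, and their median position was 0.14. Over all 413 genes that were higher in homozygous hearts, 35.1% leaned to wild-type and the median position was 0.25. Casq1, the skeletal calsequestrin, measured 6.94, 5.89 and 9.04 CPM in the wild-type, 9.65, 6.88 and 12.5 CPM in the heterozygous and 40.5, 45.7 and 52.5 CPM in the homozygous libraries, with a position of 0.15. Mybpc2, the fast-type myosin-binding protein C, measured 24.6, 19.8 and 27.6 CPM in the wild-type, 29.1, 20.4 and 29.3 CPM in the heterozygous and 88.1, 91 and 95.7 CPM in the homozygous libraries, with a position of 0.07. In Mybpc2 the heterozygous libraries lay across the wild-type range and far below the homozygous ones. Among named members, Myot had a position of 0.24, Csrp3 of 0.14, Des of -0.07 and Flnc of -0.00.

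Of 42 measured ion channel and calcium genes, 8 fell, 2 rose and 32 did not pass the test in homozygous hearts, and the 10 called had a median position of 0.23, with 4 of them leaning to wild-type. Hcn2, a pacemaker channel, measured 26.4, 20 and 24.4 CPM in the wild-type, 17.3, 17.1 and 16.4 CPM in the heterozygous and 8.26, 7.81 and 5.72 CPM in the homozygous libraries; the 3 genotypes did not overlap and the position was 0.28. Kcnd2, a transient outward potassium channel, stood at 0.35, and Atp2a2, the sarcoplasmic calcium pump, at 0.22. Of 30 splicing regulators, 5 rose and 3 fell, at a median position of 0.29, with 2 leaning to wild-type. Both of these list medians lay near the 0.26 of all 969 called genes, of which 27.1% leaned to wild-type. RBM20 targets had 6 of 26 genes higher, against 1.87% of all tested genes, and a median position of 0.15, with 3 leaning. Lists of circadian, immediate early and oxidative metabolism genes had 0 genes called by edgeR, with 0, 1 and 0 genes at an unadjusted p under 0.05 against the midpoint. Smooth muscle, erythroid, adipocyte and sex-linked lists had 0 called and 0 at that unadjusted p, and the atrial list 0 called and 3 at that p. Of 17 cell junction and nuclear envelope genes 1 fell, the desmosomal cadherin Dsg2 (position 0.24), and of 7 skeletal muscle markers 1 rose, Mybpc2, with 4 of the 7 at an unadjusted p under 0.05 against the midpoint (lowest edgeR adjusted p 0.157).

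Among the 10 genes with the largest rise in homozygous hearts, 6 stayed under 1 CPM in every library, as did 5 of the 10 with the largest fall, so few can be placed. Edn3, which encodes endothelin-3, measured 0.618, 1.05 and 1.72 CPM in the wild-type, 3.42, 3.11 and 3.33 CPM in the heterozygous and 15.1, 18.8 and 20 CPM in the homozygous libraries. All 3 heterozygous libraries of Edn3 were above all wild-type libraries and below all homozygous ones. Its position was 0.39 on the log2 scale and 0.13 on linear CPM. St8sia1, a ganglioside synthase gene, measured 0.0869, 0.106 and 0.128 CPM in the wild-type, 0.131, 0.207 and 0.16 CPM in the heterozygous and 1.54, 1.4 and 1.91 CPM in the homozygous libraries, at a position of 0.16. Syndig1 stood at 0.14 and Lncbate10 at 0.22. Pacsin1, a membrane-bending protein gene, measured 1.47, 0.761 and 0.935 CPM in the wild-type, 0.138, 0.0928 and 0.267 CPM in the heterozygous and 0.0258, 0.0207 and 0.0573 CPM in the homozygous libraries; its genotypes did not overlap and its position was 0.54 on the log2 scale and 0.87 on linear CPM.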

How the data were processed

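RNA-seq of total RNA from mouse hearts (9 libraries) was deposited as 1 table of exonic parts. Per the file headers, each library has inclusion counts, exclusion counts and PSI, a fraction that the authors computed from those counts; recomputing it as inclusion over length plus 148 against exclusion over 148 left gaps of at most 5.0e-07. Per the submitters' processing notes, cutadapt 1.8 and Salmon 1.2.1 were used with build GRCm39; per the labels' protocols, libraries were directional and sequenced as 150-base pairs. The part counter is not given in the sources used here.

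PSI was fitted with limma 3.58.1 (variance trend, 6 residual degrees of freedom), and counts summed per gene identifier, with joined loci kept apart, with edgeR 4.0.16 (TMM, filterByExpr, quasi-likelihood F-test), both with genotype only and Benjamini-Hochberg adjustment over all tested parts or genes in R 4.3.3. Genes were called at an adjusted p under 0.05. CPM values use these library sizes. The contrast was heterozygous minus the average of wild-type and homozygous. Where the 3 groups spread alike, this contrast is orthogonal to homozygous minus wild-type in the balanced design. Choosing parts by the latter then does not fix the former. Near the ends of the PSI scale the spread was unequal, so the choice can bear on the position there. Standard deviations were 0.088 in wild-type and 0 in homozygous libraries at Zfp458 part 6, and 0.217 and 0.0405 at Ttn part 287. Fieller intervals are at 95%. Both fits were tested on simulated data.

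Parts named are 1 per RBM20 target, the 15 other genes with the largest homozygous minus wild-type difference and the 15 with the largest difference from the midpoint, and in Ttn the 3 lowest and 3 highest positions; genes named are Rbm20, a cardiac stress list and the 10 largest changes each way. Other named members were chosen after their values were seen. Members and lists were chosen with earlier results of these data known. A gene that the rule names is not reported here. Same-numbered heterozygous and homozygous libraries deviated together in log2 CPM (correlations of 0.129, 0.536 and 0.245), so a fit with the replicate number as a block is given beside that comparison of genes; the labels give no source for the pairing. Replicate pairs had a chi-square per degree of freedom of 127 to 416, so no library was counted as a repeat.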

Additional observations from a re-analysis of the deposited data

How the results depend on the processing

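The number of parts that differed from the midpoint (83) was 2 on the logit of PSI, 27 with a minimum of 50 reads and 0 by limma within libraries numbered below 11000, which leave 1 wild-type library, assumed to vary like the other groups. Leaving out single libraries gave 72 to 110 parts. Replicate numbers do not pair the libraries for PSI, where correlations of same-numbered deviations ran from -0.00929 to 0.0365, nor wild-type with the other libraries for log2 CPM, where they ran from -0.198 to 0.258; with the replicate block 62 parts and 9 genes differed from the midpoint, and the median position of called parts was 0.203.

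The median position of called parts (0.27) changes as the set of called parts changes. It was 0.297 on the logit scale, 0.187 with no filter on constant parts, 0.355 with a minimum of 50 reads, 0.245 at a difference of 0.2, 0.285 without the variance trend, 0.141 with a covariate for library numbers, 1 within libraries below 11000 (603 parts called) and 0.293 with the shared Ttn skipping reads removed, and from 0.0828 to 0.326 when single libraries were left out. Over the 230 parts called with all libraries, an alternative chosen after seeing the data, leaving out a library gave 0.258 to 0.276. The Ttn block of parts 280 to 312 fell to 0.66 on the logit scale.

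The number of genes that differed from the midpoint (4) was 45 with DESeq2 1.42.0, 176 without a low-count filter, 1 over parts with a mean PSI of at least 0.95, 0 on linear CPM with limma and 0 by edgeR within libraries below 11000. Leaving out single libraries gave 4 to 6 genes and median positions from 0.155 to 0.362. Among the parts and genes named by rule, no called difference from the midpoint changed sign. The other called parts were not checked for this. Positions that crossed the midpoint include Myh7 (from -0.23 to 1.14 over parts with a mean PSI of at least 0.95) and Nppa (from 0.89 to -0.10 without heterozygous library 3), and Rbm20, at 0.49, crossed it under 8 of 16 settings. At a minimum of 50 reads the median of called Ttn parts (0.59) lay above that of the others (0.32), and the cause was not tested. Parts with few reads, such as Abitram part 6, are limited by depth.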
